A study of Mus musculus with 31 samples.

Results

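The genes described here are Cyp11b1, Cyp21a1 and Mc2r, 3 genes known for adrenal cortex function, as they were measured in whole fetal mouse ovaries and testes. They were chosen by symbol, with the probe set of highest mean signal standing for a gene, and are 3 of the 18194 genes tested. Cyp11b1 (probe set 1456362_at) and Mc2r (1422926_at) have 1 probe set each that is annotated with their symbol alone, and Cyp21a1 has 2, of which 1455691_at was used.

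The study set male against female gonads, and wild-type against mutant gonads, to find sexually dimorphic genes and genes of germ cells. Gonads came from wild-type embryos and from embryos with 2 copies of the Wv allele of Kit (Wv/Wv), a mutation that weakens the receptor germ cells need, and the mutation is carried by every cell of the embryo. Ages are in days post coitum (dpc). Ovaries of 12, 14 and 16 dpc were measured on 2, 3 and 3 arrays in both genotypes, wild-type testes on 1, 3 and 3 arrays, and Wv/Wv testes on 3, 2 and 3 arrays, which makes 31 arrays in 12 groups. No group received a treatment, and neither the background strain of the embryos nor whether gonads of several embryos were pooled is given in the sources used here. Replicates are named as biological without saying that they came from separate embryos, and a p-value here speaks of the spread among the samples at hand.

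The adrenal cortex makes corticoids from cholesterol under the control of adrenocorticotropic hormone (ACTH) from the pituitary. ACTH acts through the melanocortin 2 receptor, the product of Mc2r, which needs the accessory protein Mrap to reach the cell surface. Cyp21a1 encodes steroid 21-hydroxylase, which turns progesterone and its 17-hydroxylated form towards corticoids, and Cyp11b1 encodes steroid 11-beta-hydroxylase, which makes the final step to corticosterone, the main glucocorticoid of mice. The gonad and the adrenal cortex arise from a common primordium, and cells with adrenal-type gene expression are known to occur in the interstitium of the fetal mouse testis beside the Leydig cells, which make androgens. In RNA of a whole gonad, fewer cells of a type and less RNA per cell cannot be told apart.

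At 14 and 16 dpc Cyp11b1 and Mc2r were higher in testes than in ovaries of both genotypes, while Cyp21a1 passed the test in 1 comparison, that of Wv/Wv gonads at 16 dpc. At 12 dpc none of the 3 genes passed the test between the sexes. From 12 to 14 dpc Cyp11b1 rose in testes, from a signal as low as that of ovaries. Mc2r was already between 7.77 and 8.17 in testes at 12 dpc, and in ovaries its signal was lower at 14 and 16 than at 12 dpc on all but 1 array. None of the 3 genes passed the test between Wv/Wv and wild type in either sex at any age. All levels are log2 signals, so that fold differences are powers of 2; levels of different genes are not compared, since probe sets differ in how strongly they bind.

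**Figure D1:**
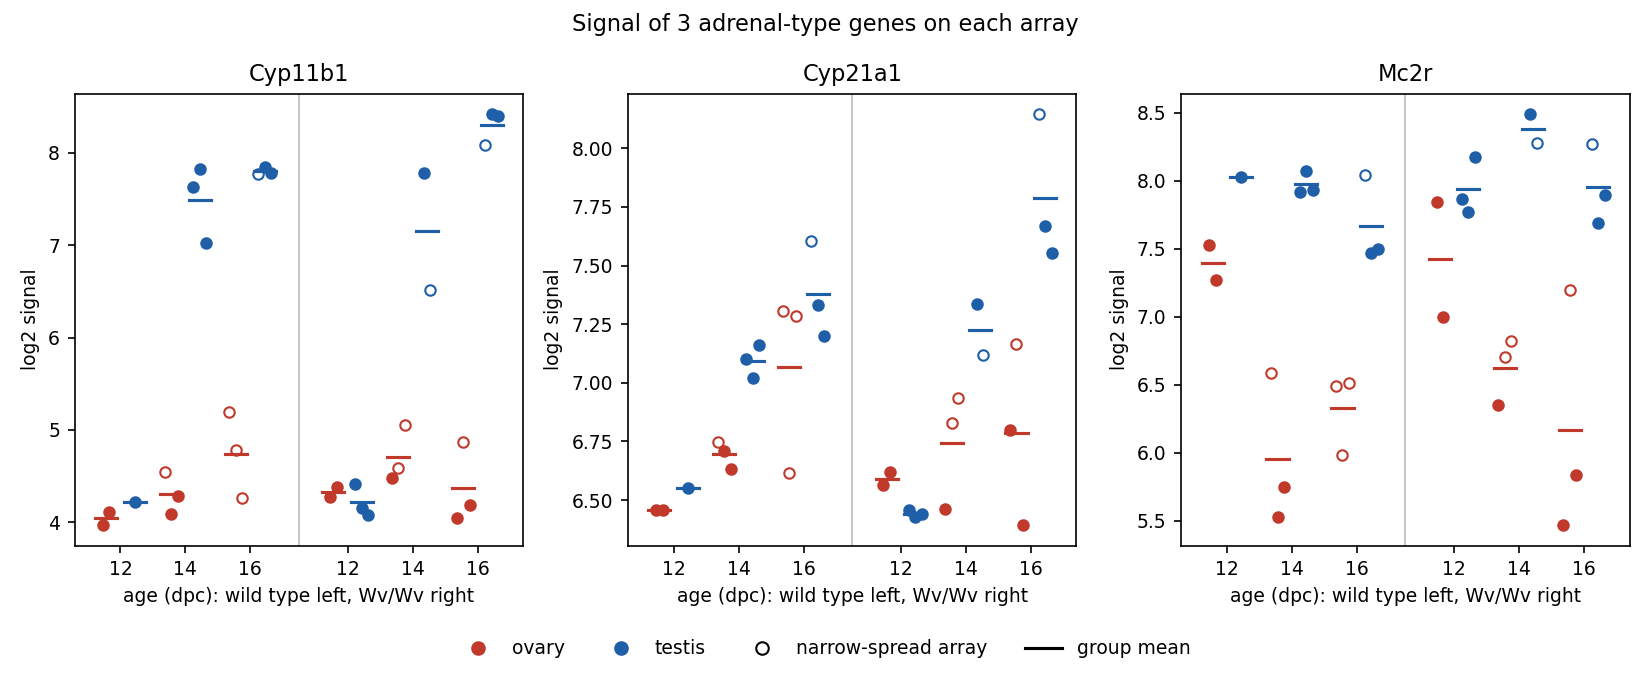
Signal (log2) of Cyp11b1, Cyp21a1 and Mc2r on each of the 31 arrays (points) by age in dpc, with wild-type gonads left and Wv/Wv gonads right of the grey line in each panel. Ovaries are red, testes blue, bars are group means, and open points are the 10 arrays with a narrow spread of signals; Cyp11b1 is low in every 12 dpc gonad and every ovary and at 6.52 or above in every testis of 14 and 16 dpc.

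The arrays fall into 2 classes by the SD of their signals over all 45101 probe sets. It was between 2.33 and 2.39 on 21 arrays and between 1.77 and 2.18 on 10, here called narrow-spread; the labels do not name this difference. The narrow-spread arrays are all 3 of wild-type ovaries at 16 dpc, array 1 of wild-type ovaries at 14 dpc, arrays 2 and 3 of Wv/Wv ovaries at 14 dpc, array 2 of Wv/Wv ovaries at 16 dpc, array 2 of Wv/Wv testes at 14 dpc, and array 1 of each testis group at 16 dpc. All 12 dpc arrays have the wide spread. The labelled tissue matched its markers most fully at 14 dpc. There 4 of 5 Sertoli cell genes were called higher in wild-type testes and all 5 in Wv/Wv testes. At 16 dpc 2 were called higher in wild type and 4 in Wv/Wv. All 4 pregranulosa genes were called lower in testes of both genotypes at 14 and 16 dpc. At 12 dpc 2 Sertoli and 3 pregranulosa genes were called in these directions in Wv/Wv. The wild-type medians at 12 dpc, with 1 testis array, were 2.44 for Sertoli and -1.76 for pregranulosa genes. Of the 4 germ cell genes (Dazl, Ddx4, Mael, Sycp3) all were called lower in Wv/Wv than in wild-type gonads at 14 and 16 dpc in both sexes.

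Mc2r, the ACTH receptor gene, was high in testes at every age. In wild-type testes its signal was 8.03 on the single array at 12 dpc, 7.92, 8.07 and 7.94 on the 3 arrays at 14 dpc, and 8.04, 7.47 and 7.50 at 16 dpc. In Wv/Wv testes it was 7.87, 7.77 and 8.17 at 12 dpc, 8.49 and 8.28 at 14 dpc, and 8.27, 7.69 and 7.90 at 16 dpc. All 15 testis arrays thus lay between 7.47 and 8.49, with no age standing apart in wild type. In wild-type ovaries Mc2r was 7.53 and 7.27 at 12 dpc, 6.58, 5.53 and 5.75 at 14 dpc, and 6.49, 5.98 and 6.51 at 16 dpc. In Wv/Wv ovaries it was 7.85 and 7.00 at 12 dpc, 6.36, 6.70 and 6.82 at 14 dpc, and 5.47, 7.20 and 5.84 at 16 dpc. The ovary arrays of 14 and 16 dpc were all below every testis array, while at 12 dpc ovaries and Wv/Wv testes overlapped; the highest of the later ovary arrays, 7.20, is narrow-spread.

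In wild type the testis minus ovary difference of Mc2r was 0.63 ± 0.50 (SE) at 12 dpc, with an adjusted p of 1 by limma. It was 2.02 ± 0.34 at 14 dpc (adjusted p = 0.000251), a 4.05-fold difference between means of 7.98 ± 0.08 (SD, n = 3) and 5.96 ± 0.56 (SD, n = 3). It was 1.34 ± 0.34 at 16 dpc (adjusted p = 0.0105), a 2.53-fold difference between means of 7.67 ± 0.32 (SD, n = 3) and 6.33 ± 0.30 (SD, n = 3). The arrays of the sexes did not overlap at either of these ages. As background, 0.253% of all genes tested were called in this comparison at 12 dpc, 5.93% at 14 dpc and 9.65% at 16 dpc. In wild type 0 of the 3 genes were called at 12 dpc, none of them with an unadjusted p below 0.05, and Cyp11b1 and Mc2r were 2 called of 3 at 14 dpc and again at 16 dpc.

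In Wv/Wv gonads the difference of Mc2r was 0.51 ± 0.37 at 12 dpc (adjusted p = 1), 1.76 ± 0.37 at 14 dpc (adjusted p = 0.00554) and 1.78 ± 0.34 at 16 dpc (adjusted p = 0.000855). These are 3.38-fold and 3.44-fold differences at 14 and 16 dpc. The share of all genes called was 0.374% at 12 dpc, 3.69% at 14 dpc and 6.96% at 16 dpc, beside 0, 2 and all 3 of the members. The call of Mc2r rested on single arrays at 2 points: it was lost in wild type at 16 dpc without array 2 of the ovaries (1.17, adjusted p = 0.064), and in Wv/Wv at 14 dpc without array 1 of the testes (1.65, adjusted p = 0.101). Among the 21 wide-spread arrays alone the testis minus ovary difference was 2.33 in wild type at 14 dpc, and 2.13 and 2.14 in Wv/Wv at 14 and 16 dpc. Among the narrow-spread arrays alone it was 1.72 in wild type at 16 dpc, 1.52 in Wv/Wv at 14 dpc and 1.07 in Wv/Wv at 16 dpc, the last with an adjusted p of 0.192. The wide-spread value of Wv/Wv at 14 dpc and the narrow-spread value of Wv/Wv at 16 dpc compare 1 array with 1 array, and the other narrow-spread values have 1 testis array.

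**Figure D2:**
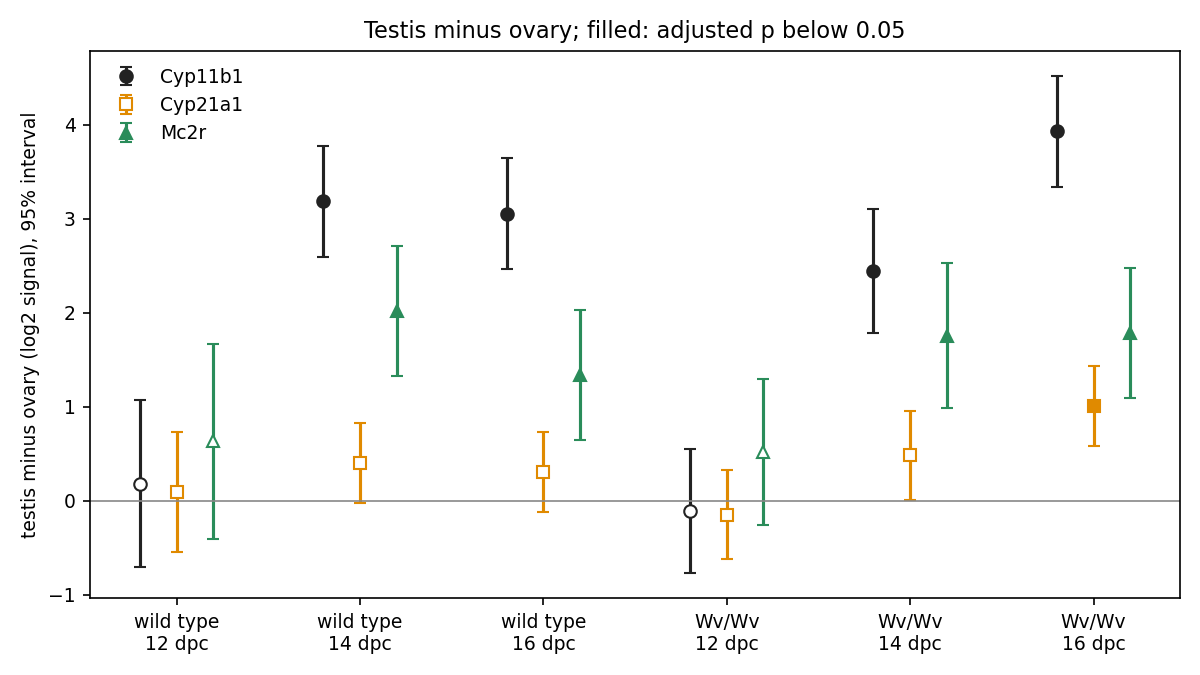
Testis minus ovary difference (log2 signal) of Cyp11b1, Cyp21a1 and Mc2r in each genotype and age, with 95% intervals from the fit over 31 arrays; filled symbols have an adjusted p below 0.05. Cyp11b1 goes from 0.18 and -0.11 at 12 dpc to 3.93 in Wv/Wv at 16 dpc, Mc2r lies between 1.34 and 2.02 at 14 and 16 dpc, and Cyp21a1 reaches 1.00 only in Wv/Wv at 16 dpc.

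The age course of Mc2r was examined in each sex, the ovaries after their values had been seen. In testes from 12 to 14 dpc the difference was -0.06 ± 0.47 for wild type and 0.45 ± 0.37 for Wv/Wv, and neither passed the test (adjusted p = 1 and 0.608). From 14 to 16 dpc it differed by -0.31 and -0.43, again without passing. In wild-type ovaries it fell by 1.44 ± 0.37 on the log2 scale from 12 to 14 dpc (adjusted p = 0.0363), and no array of one age reached those of the other. This is a single call beside 2.59% of all genes, and it was called in 6 of 11 other settings. It was lost with the replicate number as a block (-1.43, adjusted p = 0.056), with every probe set tested (-1.44, adjusted p = 0.0508), with quantile normalization (-1.30, adjusted p = 0.15), with cyclic loess (-1.36, adjusted p = 0.0943) and with only the arrays compared (-1.44, adjusted p = 0.146). It was also lost without array 1 or array 2 of 12 dpc (-1.32 and -1.57, adjusted p = 0.45 and 0.125) and without array 2 or array 3 of 14 dpc (-1.23 and -1.34, adjusted p = 0.182 and 0.117). The other ovary differences against 12 dpc were -1.07 ± 0.37 for wild type at 16 dpc (adjusted p = 0.0765), -0.80 ± 0.37 for Wv/Wv at 14 dpc (adjusted p = 0.345) and -1.25 ± 0.37 for Wv/Wv at 16 dpc (adjusted p = 0.0661). All genes called in these comparisons were 7.68%, 1.54% and 3.69%. They were called in 4 of 10, 3 of 11 and 4 of 11 other settings. In another setting the spread class of the array was a term of the fit. Array 1 of wild-type testes at 16 dpc, the array of narrowest spread, was left out there. All 4 falls then passed the test, with -1.67 and -1.75 in wild type at 14 and 16 dpc. In Wv/Wv they were -1.25 and -1.48 at these ages. In wild-type ovaries all 16 dpc arrays are narrow-spread and all 12 dpc arrays wide-spread. Age and array class cannot be told apart there, and -1.75 rests on a class shift estimated from other groups. For Mc2r the change from 12 to 14 dpc differed between the sexes by 1.39 ± 0.60 in wild type and, for Wv/Wv gonads, by 1.24 ± 0.53, neither called (adjusted p = 1 for both). It was called in wild type with array weights (1.66, adjusted p = 0.00129) and, among wide-spread arrays alone, in wild type (1.70, adjusted p = 0.0157) and Wv/Wv (1.62, adjusted p = 0.0429), where wild-type testes have 1 array at 12 dpc and Wv/Wv gonads 1 array a sex at 14 dpc.

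Cyp21a1 had the smallest differences of the 3 genes. In wild-type ovaries it was 6.46 and 6.46 at 12 dpc, 6.75, 6.71 and 6.63 at 14 dpc, and 7.31, 6.61 and 7.28 at 16 dpc. In wild-type testes it was 6.55 at 12 dpc, 7.10, 7.02 and 7.16 at 14 dpc, and 7.60, 7.33 and 7.20 at 16 dpc. The 14 dpc testis arrays were all above the ovary arrays of that age, while at 16 dpc the lowest testis array lay below the 2 highest ovary arrays. The testis minus ovary differences of 0.09 ± 0.31, 0.40 ± 0.21 and 0.31 ± 0.21 at 12, 14 and 16 dpc were not called (adjusted p = 1, 0.422 and 0.416). Their 95% intervals reach from -0.03 to 0.82 at 14 dpc and from -0.12 to 0.73 at 16 dpc, so a moderately higher signal in testes is within what the arrays allow.

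In Wv/Wv ovaries Cyp21a1 was 6.56 and 6.62 at 12 dpc, 6.46, 6.83 and 6.94 at 14 dpc, and 6.80, 7.16 and 6.39 at 16 dpc. In Wv/Wv testes it was 6.46, 6.43 and 6.44 at 12 dpc, 7.33 and 7.12 at 14 dpc, and 8.15, 7.67 and 7.55 at 16 dpc. The 3 testis arrays of 16 dpc held 3 of the 4 highest values of the gene on all 31 arrays, the other being array 1 of wild-type testes at the same age. At 16 dpc the testis mean of 7.79 ± 0.31 (SD, n = 3) was 2.00-fold above the ovary mean of 6.79 ± 0.39 (SD, n = 3), with a difference of 1.00 ± 0.21 (SE, adjusted p = 0.0021) and no overlap. At 14 dpc the difference was 0.48 ± 0.23 (adjusted p = 0.45) and at 12 dpc -0.15 ± 0.23 (adjusted p = 1). Quantile normalization of the arrays ended the call at 16 dpc (0.95, adjusted p = 0.0519), and the narrow-spread arrays alone, 1 a sex, gave 0.98 (adjusted p = 0.297).

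For Cyp21a1 the calls differed between settings, and the cause was not tested. Among the wide-spread arrays alone the testis minus ovary difference was 0.42 in wild type (adjusted p = 0.0103) and 0.87 in Wv/Wv (adjusted p = 0.00427) at 14 dpc, and 1.01 in Wv/Wv at 16 dpc. The Wv/Wv value at 14 dpc sets 1 testis array against 1 ovary array, which are taken to vary like the arrays of other groups. With the class as a term and every array kept, the values at 14 dpc were not called (0.50 and 0.53, adjusted p = 0.0536 and 0.079), and the wild-type value at 16 dpc was (0.51, adjusted p = 0.0323). With the class as a term and the narrowest array left out it was 0.50 in wild type (adjusted p = 0.0371) and 0.53 in Wv/Wv (adjusted p = 0.0496) at 14 dpc, and 0.50 in wild type at 16 dpc (adjusted p = 0.12). The direction was thus testis above ovary at 14 and 16 dpc in each of these settings. The rise from 12 to 14 dpc was 0.54 ± 0.29 in wild-type testes (adjusted p = 1) and 0.78 ± 0.23 in Wv/Wv testes (adjusted p = 0.087), and it was called in both among wide-spread arrays alone, at 0.54 (adjusted p = 0.03) and 0.89 (adjusted p = 0.000992). Each of these calls has an age with 1 array, that of 12 dpc in wild type and that of 14 dpc in Wv/Wv.

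The second Cyp21a1 probe set, 1422333_at, did not repeat the call. In Wv/Wv testes of 16 dpc it read 6.83, 5.49 and 5.65 and in Wv/Wv ovaries 4.76, 5.64 and 4.81, a difference of 0.92 with an adjusted p of 0.413. Its highest signal, 7.62, was on array 1 of wild-type testes at 16 dpc, where the other 2 arrays of the group read 5.54 and 5.07. The arrays on which it stood out, among them array 3 of Wv/Wv ovaries at 14 dpc with 6.33 and array 2 of Wv/Wv testes at 14 dpc with 6.11, were narrow-spread. The part of the array class in these values was not tested for this probe set. Mice also carry a near-identical copy of Cyp21a1 that is annotated as a pseudogene, so which of the copies a probe set reads is uncertain.

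**Figure D3:**
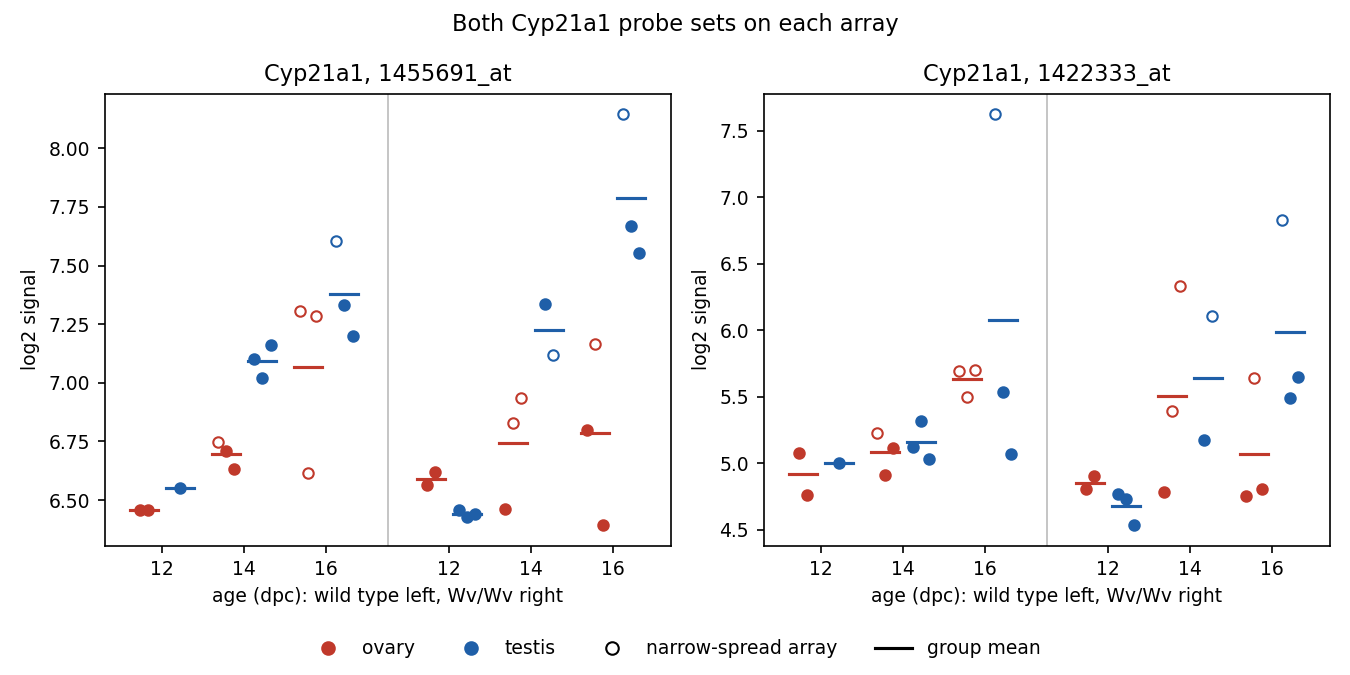
Signal (log2) of the 2 Cyp21a1 probe sets on each array by age in dpc, wild type left and Wv/Wv right of the grey line; ovaries red, testes blue, bars group means, open points narrow-spread arrays. The set used, 1455691_at, is above 7.00 on all testis arrays of 14 and 16 dpc, while the highest signals of 1422333_at, 7.62 and 6.83, fall on narrow-spread arrays.

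Cyp11b1 had the largest differences between the sexes of the 3 genes. In wild-type ovaries its signal was 3.97 and 4.12 at 12 dpc, 4.55, 4.09 and 4.29 at 14 dpc, and 5.19, 4.78 and 4.26 at 16 dpc. In Wv/Wv ovaries it was 4.27 and 4.38 at 12 dpc, 4.48, 4.59 and 5.06 at 14 dpc, and 4.05, 4.87 and 4.19 at 16 dpc. In testes at 12 dpc it was 4.22 in wild type and 4.41, 4.15 and 4.08 in Wv/Wv. These 20 arrays, 64.5% of all, were below 5.39, the 40th percentile of all signals in the data, which was taken as the limit of low signal. In wild-type testes it was 7.63, 7.82 and 7.03 at 14 dpc and 7.77, 7.84 and 7.78 at 16 dpc. In Wv/Wv testes it was 7.79 and 6.52 at 14 dpc and 8.08, 8.42 and 8.40 at 16 dpc. The lowest of these 11 arrays stood 1.32 above the highest of the 20 low ones, so the groups form 2 sets with no overlap. The highest ovary values, 5.19 and 5.06, were both on narrow-spread arrays. In wild-type ovaries the 16 minus 12 dpc difference was 0.70 ± 0.32 for Cyp11b1 (adjusted p = 0.147) and 0.61 ± 0.23 for Cyp21a1 (adjusted p = 0.0948), and there age and array class cannot be told apart, since all 16 dpc arrays are narrow-spread and all 12 dpc arrays wide-spread.

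In wild type Cyp11b1 was 3.18 ± 0.29 (SE) higher in testes at 14 dpc (adjusted p = 4.91e-08), from means of 7.49 ± 0.41 (SD, n = 3) and 4.31 ± 0.23 (SD, n = 3). At 16 dpc it was 3.05 ± 0.29 higher (adjusted p = 7.77e-08), from 7.80 ± 0.04 (SD, n = 3) and 4.74 ± 0.47 (SD, n = 3). In Wv/Wv it was 2.45 ± 0.32 higher at 14 dpc (adjusted p = 2.06e-05) and 3.93 ± 0.29 higher at 16 dpc (adjusted p = 1.28e-09). Because every ovary array was under the limit of low signal, these are bounds when the limit stands for the ovary: at least 4.30-fold and 5.32-fold higher in wild type, and at least 3.40-fold and 7.53-fold higher in Wv/Wv, at 14 and 16 dpc. At 12 dpc the differences were 0.18 ± 0.43 and -0.11 ± 0.32, both with an adjusted p of 1 and with all arrays under the limit. Within the classes the called differences kept their direction, with 3.30, 3.31 and 4.29 among wide-spread arrays for wild type at 14 dpc and Wv/Wv at 14 and 16 dpc, and 3.03, 1.70 and 3.21 among narrow-spread arrays for wild type at 16 dpc and Wv/Wv at 14 and 16 dpc, with the same arms of 1 array as for Mc2r.

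From 12 to 14 dpc Cyp11b1 rose in testes by 3.27 ± 0.40 in wild type (adjusted p = 5.1e-05) and by 2.94 ± 0.32 in Wv/Wv (adjusted p = 3.99e-06). With the limit of low signal standing for the 12 dpc arrays, these are rises of at least 4.30-fold and 3.40-fold. Of all genes 0.786% and 2.17% were called in these comparisons, and of the members Cyp11b1 alone. For ovaries the same step was 0.26 ± 0.32 (wild type) or 0.38 ± 0.32 (Wv/Wv), and the change differed between the sexes by 3.00 ± 0.52 in wild type (adjusted p = 0.00496) and by 2.56 ± 0.45 in Wv/Wv (adjusted p = 0.00654). These comparisons of the change between sexes were added after the values had been seen; each called 0.297% of all genes. In Wv/Wv the call was lost with array weights (2.42, adjusted p = 0.0608), with only the arrays compared (2.56, adjusted p = 0.123), without array 1 of the 14 dpc testes (1.92, adjusted p = 0.113) or without array 2 of the 12 dpc ovaries (2.50, adjusted p = 0.0555).

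From 14 to 16 dpc Cyp11b1 differed by 0.31 ± 0.29 in wild-type testes (adjusted p = 0.511) and by 1.15 ± 0.32 in Wv/Wv testes (adjusted p = 0.451), with 0.83% and 0.11% of all genes called. The Wv/Wv arrays of the 2 ages did not overlap, and without array 1 of the 14 dpc testes the difference was 1.78 (adjusted p = 0.044). For the change of the sex difference from 14 to 16 dpc none of the 3 genes was called in either genotype, where 0.126% and 0% of all genes were. In Wv/Wv the value of Cyp11b1 was 1.49 ± 0.43, the only 1 of the 6 with an unadjusted p below 0.05; over all genes 348 had one and 0 passed the adjustment by limma.

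Between genotypes 0 of 18 member values were called by limma, and 0 had an unadjusted p below 0.05. All genes called were 0.033%, 0.594% and 0.484% in testes and 0.0934%, 4.37% and 3.74% in ovaries at 12, 14 and 16 dpc. The largest Wv/Wv minus wild type difference was that of Mc2r in ovaries at 14 dpc, 0.67 ± 0.34 (adjusted p = 0.32). In testes at 16 dpc the differences were 0.50 ± 0.29 for Cyp11b1, 0.41 ± 0.21 for Cyp21a1 and 0.28 ± 0.34 for Mc2r. The 3 Wv/Wv testis arrays of Cyp11b1 at 16 dpc were all above the 3 wild-type arrays, by at least 0.24, although this was not called. Array weights, whose estimation did not converge, turned those of Cyp11b1 and Cyp21a1 in testes at 16 dpc into calls (0.60, adjusted p = 0.0227, and 0.38, adjusted p = 0.0196).

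Whether the sex difference itself depended on genotype was tested at each age, and 0 of 9 member values were called by limma, 2 of them with an unadjusted p below 0.05. These were Cyp11b1 at 16 dpc, with a difference between genotypes of 0.88 ± 0.40 (adjusted p = 0.526), and Cyp21a1 at 16 dpc, with 0.69 ± 0.29 (adjusted p = 0.442). The 95% intervals, from 0.04 to 1.71 and from 0.09 to 1.30, do not reach below 0. All genes called in this comparison were 0%, 0.275% and 0.813% at 12, 14 and 16 dpc. By limma 16, 533 and 1613 of the 18194 genes had an unadjusted p below 0.05 at these ages. At 14 dpc the Cyp11b1 value was -0.74 ± 0.43, opposite in sign to that of 16 dpc.

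Ordered by group mean, Cyp11b1 ran from 4.04 in wild-type ovaries at 12 dpc to 4.74 in wild-type ovaries at 16 dpc over 8 groups, with each neighbour overlapping, then stepped by 2.41 to 7.15 in Wv/Wv testes at 14 dpc. Above this step the 14 dpc testes of both genotypes and the 16 dpc wild-type testes overlapped in a chain, and Wv/Wv testes of 16 dpc came last with 8.30. Cyp21a1 ran from 6.44 in Wv/Wv testes at 12 dpc to 7.79 in Wv/Wv testes at 16 dpc, with all 4 testis groups of 14 and 16 dpc at the top and no step between neighbours above 0.41. Mc2r ran from 5.96 in wild-type ovaries at 14 dpc to 8.38 in Wv/Wv testes at 14 dpc; its 4 lowest groups were the ovaries of 14 and 16 dpc, and the step of 0.77 from them to the 12 dpc ovaries was its largest. The pooled SD within groups, against which these steps are to be read, was 0.36 for Cyp11b1, 0.24 for Cyp21a1 and 0.43 for Mc2r.

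Across the 12 group means Cyp11b1 correlated with Cyp21a1 at 0.91 and with Mc2r at 0.52, and Cyp21a1 with Mc2r at 0.25. The same values over the 31 arrays were 0.82, 0.56 and 0.36; the arrays share their normalization and their spread class. Among 3114 genes whose group means varied with an SD of at least 0.5, those most like Cyp11b1 were Pdyn, Star, Cyp17a1, Fbp1 and Serpina5, each at 0.99 over the 12 means and between 0.96 and 0.97 over the arrays. Star encodes the protein that moves cholesterol into mitochondria, and Cyp17a1 the enzyme that commits steroids towards androgens. Those most like Cyp21a1 were Il15ra, Gpr153, Sapcd1, Klhdc8a and Mfap4, at 0.94 to 0.96, and those most like Mc2r were Fblim1, Eya1, Slitrk2, Sel1l3 and Pkdcc, at 0.95 to 0.97.

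A list of 12 genes was made for the steroid pathway and Leydig cells, and not all of them are shared with the adrenal cortex. Of these, 7 were measured by a probe set of their own: Star, Cyp11a1, Hsd3b1, Cyp17a1, Hsd17b3, Fdx1 and Scarb1. At 12 dpc 0 of 7 were called between testes and ovaries by limma in either genotype, with 2 in wild type and 1 in Wv/Wv at an unadjusted p below 0.05. At 14 dpc 6 were called higher in testes of each genotype and at 16 dpc all 7, with none lower. The median testis minus ovary difference of the 7 was 0.82, 3.35 and 4.00 in wild type and 0.37, 3.38 and 3.44 in Wv/Wv at 12, 14 and 16 dpc, where that of all genes lay between -0.05 and 0.05.

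Cyp17a1, which the adult mouse adrenal lacks, was 13.54, 13.26 and 13.44 in wild-type testes at 14 dpc and 6.12, 6.51 and 6.53 in the ovaries, a difference of 7.03 ± 0.30 (adjusted p = 2.03e-13). Cyp11a1, which makes the first steroid from cholesterol, differed by 7.33 ± 0.33 (adjusted p = 3.64e-13) with all 3 ovary arrays under the limit of low signal, hence at least 118-fold, and Star by 4.47 ± 0.32 (adjusted p = 9.02e-10). In testes Cyp17a1 rose from 12 to 14 dpc by 7.41 ± 0.42 in wild type (adjusted p = 1.25e-10), the interval in which Cyp11b1 rose. On array 1 of wild-type testes at 16 dpc Star read 9.60 against 11.33 and 11.14 on the others and Cyp17a1 12.72 against 13.89 and 13.95, while Cyp11b1 read 7.77 against 7.84 and 7.78. That array has the narrowest spread of all.

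Hsd3b1, the dehydrogenase that both corticoid and androgen synthesis pass through, was not confined to testes. In wild-type ovaries it read 5.49 and 5.78 at 12 dpc and 9.06, 9.08 and 8.95 at 14 dpc, a rise of 3.39 ± 0.44 (adjusted p = 2.74e-05), and in Wv/Wv ovaries it rose by 3.51 ± 0.44 (adjusted p = 6.92e-05). Hsd3b1 was still higher in testes by 3.35 ± 0.39 in wild type at 14 dpc (adjusted p = 2.66e-06). It was the only 1 of the 7 pathway genes called higher at 14 or 16 than at 12 dpc in ovaries. Cyp11a1 was lower in wild-type ovaries at 16 than at 12 dpc by 1.70 ± 0.37 (adjusted p = 0.00534). The 16 dpc signal was under the limit, hence at least 1.64-fold lower. Age and array class cannot be told apart in these wild-type groups, and in Wv/Wv ovaries Cyp11a1 was not called between these ages.

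Of 11 genes chosen as partners of the adrenal genes 9 were measured, but not Mc4r and the adrenal cortex marker Akr1b7. The 9 are receptor accessory proteins, other melanocortin receptors, the ACTH precursor Pomc, the regulators Nr5a1 and Nr0b1, and Cyp11b2. None was called between the sexes by limma in any genotype or age, with 1 to 3 at an unadjusted p below 0.05 in each comparison. Their median difference lay between -0.18 and 0.14. Cyp11b2, the aldosterone synthase and nearest relative of Cyp11b1, read between 3.63 and 5.71 on all arrays, with the highest value on the array of narrowest spread. Its testis minus ovary differences at 16 dpc were 0.25 ± 0.33 for wild type and 0.36 ± 0.33 for Wv/Wv gonads (adjusted p = 0.728 and 0.898), where those of Cyp11b1 were 3.05 and 3.93.

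Mrap, whose protein carries the receptor encoded by Mc2r to the membrane, rose with age in both sexes. It read 4.57 and 4.40 in wild-type ovaries and 4.82 in the wild-type testis array at 12 dpc, and 6.04, 5.85 and 6.46 in ovaries and 6.82, 6.87 and 6.55 in testes at 14 dpc. The highest of the 8 arrays of 12 dpc was thus below the lowest of all later ones, which was 5.59 in Wv/Wv ovaries on a wide-spread array. From 12 to 14 dpc Mrap rose by 1.93 ± 0.29 in wild-type testes (adjusted p = 0.000579), 1.63 ± 0.23 in wild-type ovaries (adjusted p = 8.76e-05), 2.47 ± 0.23 in Wv/Wv testes (adjusted p = 3.53e-07) and 2.16 ± 0.23 in Wv/Wv ovaries (adjusted p = 1.34e-05). Since its 12 dpc arrays were all under the limit of low signal, these are rises of at least 2.57-fold, 1.65-fold, 2.86-fold and 1.70-fold. At 14 and 16 dpc its signal was 0.64 to 0.75 higher in testes with adjusted p between 0.0514 and 0.081, which missed the threshold, although the arrays of the sexes did not overlap in either genotype at these ages. In ovaries Mrap thus rose over the ages at which Mc2r had a lower signal, and in testes it rose over a step at which Mc2r did not pass the test.

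**Figure D4:**
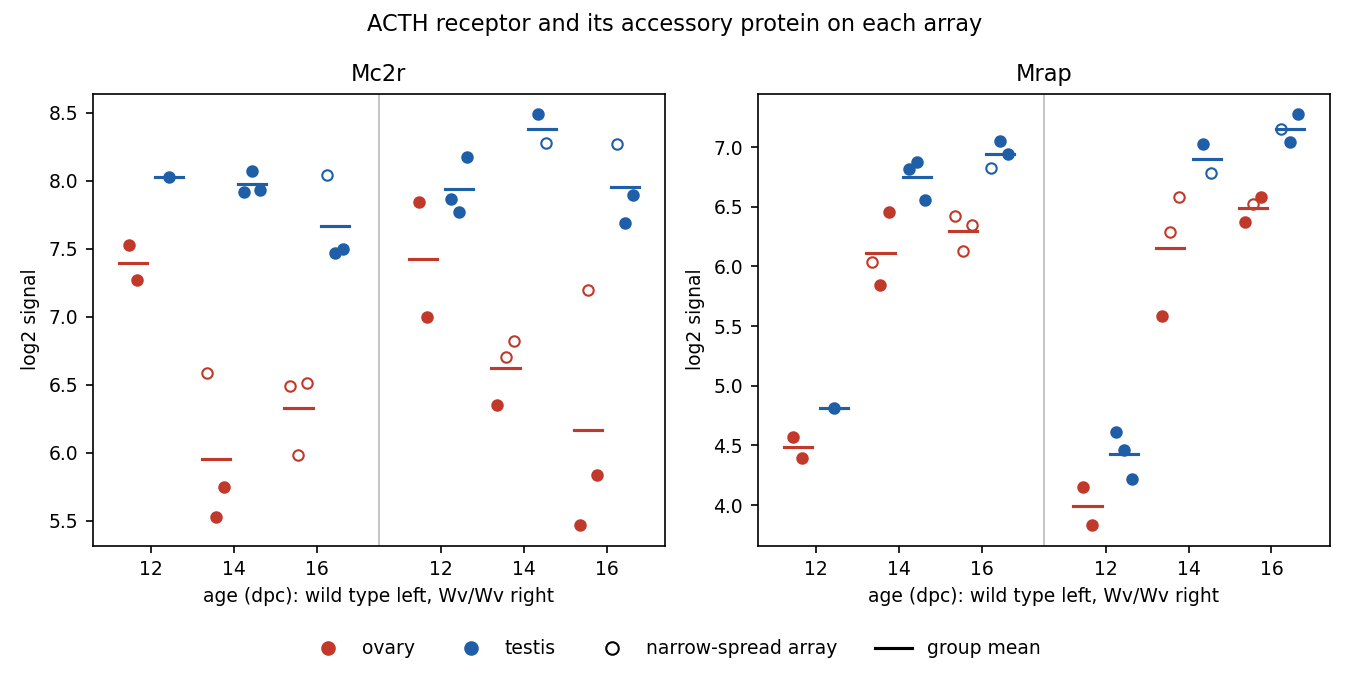
Signal (log2) of the ACTH receptor gene Mc2r and of its accessory protein gene Mrap on each array by age in dpc, wild type left and Wv/Wv right of the grey line; ovaries red, testes blue, bars group means, open points narrow-spread arrays. Mrap goes from at most 4.82 at 12 dpc to at least 5.59 later in both sexes, while Mc2r is lower in ovaries than in testes at 14 and 16 dpc.

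Of 6 genes for the receptors, inactivation and response to corticoids, all were measured. Hsd11b2, whose enzyme inactivates corticosterone, read 11.07, 10.85 and 11.04 in testes against 7.47, 8.18 and 8.47 in ovaries of wild type at 14 dpc. At 14 dpc it was higher in testes by 2.95 ± 0.41 in wild type (adjusted p = 3.09e-05) and 2.51 ± 0.46 in Wv/Wv (adjusted p = 0.00124). At 16 dpc it was higher in testes by 1.46 ± 0.41 in wild type (adjusted p = 0.0245) and was not called in Wv/Wv. At 12 dpc Hsd11b2 read 11.26 in the wild-type testis against 9.91 and 9.20 in ovaries, a difference of 1.70 ± 0.62 that was not called. Nr3c2, the mineralocorticoid receptor, was lower in Wv/Wv testes than ovaries at 16 dpc by -0.98 ± 0.25 (adjusted p = 0.0169), at least 1.24-fold since every testis array was under the limit of low signal, and the glucocorticoid receptor Nr3c1, Hsd11b1, Fkbp5 and Tsc22d3 were called in none of the 6 sex comparisons.

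**Figure D5:**
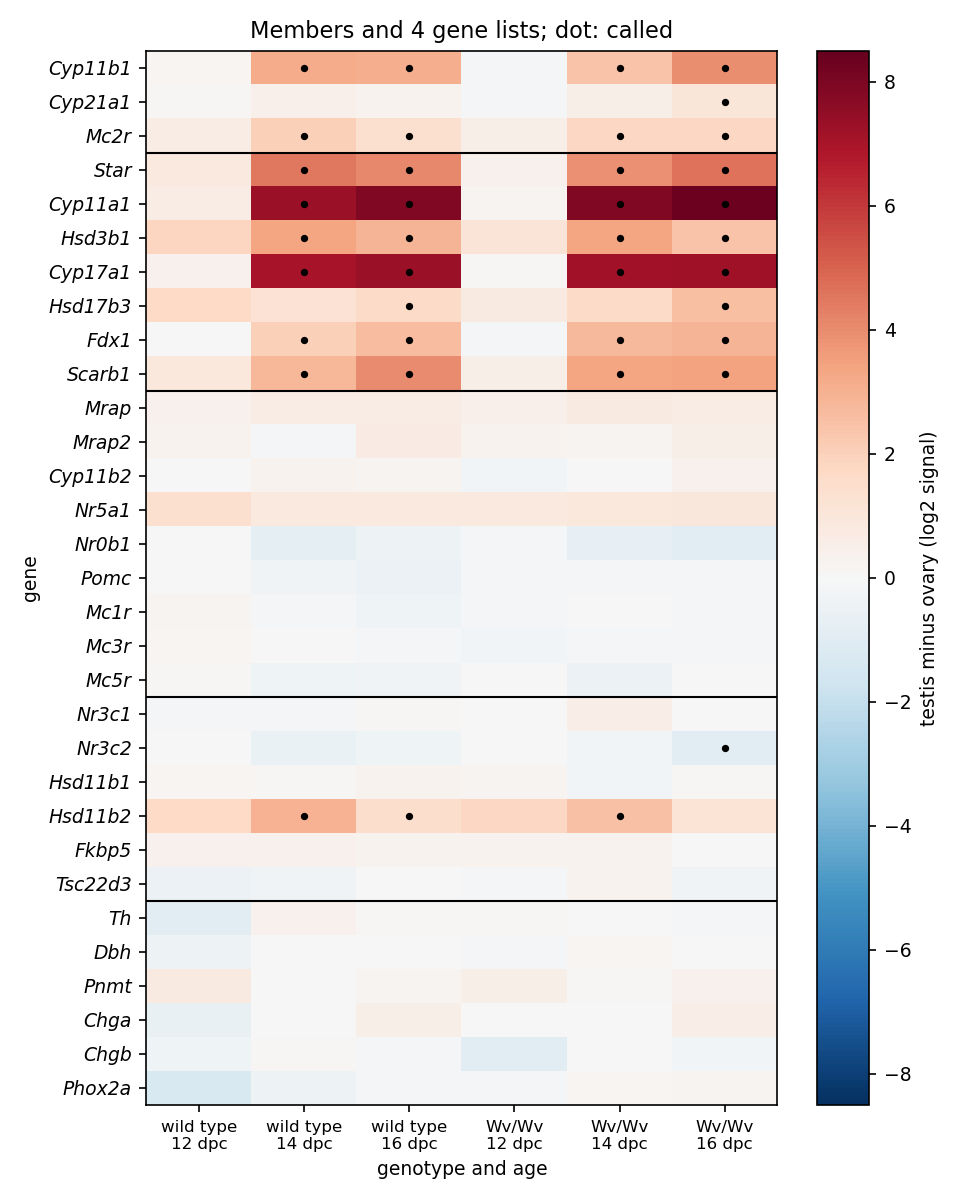
Testis minus ovary difference (log2 signal, colour) of Cyp11b1, Cyp21a1, Mc2r and the measured genes of 4 lists, separated by lines (steroid pathway, adrenal partners, corticoid receptors and response, adrenal medulla), in each genotype and age; a dot marks an adjusted p below 0.05. In the steroid pathway block 6 of 7 genes have a dot at 14 dpc and all 7 at 16 dpc, and dots are missing from the partner and medulla blocks.

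Dissection can carry tissue next to the gonad, so markers of other cells are given beside these results. Of 7 adrenal medulla genes 6 were measured (Th, Dbh, Pnmt, Chga, Chgb, Phox2a), and 0 were called by limma between the sexes in any genotype or age, with 1 at an unadjusted p below 0.05 in wild type at 12 dpc and 0 in the other comparisons. At 14 dpc the log2 of their summed signals was 8.65 to 8.84 in wild-type testes and 8.62 to 8.88 in wild-type ovaries. At 16 dpc it was 8.72 to 9.69 in wild-type testes and 8.78 to 9.08 in wild-type ovaries. In each of these 4 groups 3 of the 6 genes were under the limit of low signal on every array. Their part in the results was not tested.

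At 12 dpc the medulla genes reached higher signals on some arrays and were uneven between arrays. The log2 of their summed signals was 9.00 to 9.90 in Wv/Wv ovaries and 9.01 to 10.28 in Wv/Wv testes. These ranges overlap that of wild-type testes at 16 dpc. From 12 to 14 dpc 0 of the 6 were called by limma in Wv/Wv ovaries or Wv/Wv testes, with median differences of -0.57 and -0.42. In wild-type testes, with 1 array at 12 dpc, the median was -0.57. Chgb, a protein of secretory granules, read 9.57 and 6.82 in wild-type ovaries, 7.83 in the wild-type testis, 6.59 and 8.65 in Wv/Wv ovaries, and 5.40, 5.88 and 8.91 in Wv/Wv testes, and no later array was above 5.53. From 12 to 14 dpc in wild-type ovaries, the step at which Mc2r fell, Chgb fell by 3.45 ± 0.73 (adjusted p = 0.00686), Th by 2.02 ± 0.52 (adjusted p = 0.0326) and Dbh by 0.87 ± 0.21 (adjusted p = 0.0208). Chgb and Th were under the limit of low signal on all 3 arrays of 14 dpc, so their falls are of at least 7.00-fold and 2.31-fold. The log2 of the summed signal of the 6 genes went from between 9.29 and 10.64 to between 8.62 and 8.88 there. Its part in the fall of Mc2r was not tested.

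For the 4 measured mesonephros and tubule genes (Pax8, Lhx1, Cdh16, Calb1) the log2 of the summed signals was 9.14 to 9.85 in wild-type ovaries at 14 dpc. In wild-type testes of that age it was 7.79 to 8.04, and 2 of the 4 genes were under the limit of low signal on every array. In Wv/Wv it was between 10.42 and 10.91 in ovaries and between 7.07 and 7.45 in testes at that age. Lhx1 was called higher in wild-type testes at 14 dpc, at least 3.58-fold (adjusted p = 0.000437). It read 7.37, 6.93 and 7.38 in testes, and all 3 ovary arrays were under the limit. In Wv/Wv gonads Lhx1 was not called between the sexes at 14 dpc, and it was called lower in Wv/Wv than in wild-type testes of that age. In wild-type testes it was also called lower at 16 than at 14 dpc. Calb1 was called lower in testes of both genotypes at 14 and 16 dpc, and Pax8 in Wv/Wv testes at 14 and 16 dpc and in wild-type testes at 16 dpc. The part of these genes in the results was not tested. Macrophage genes (Csf1r, Cd68, Adgre1) had like summed signals in wild-type ovaries and testes at 14 dpc, with a log2 of 9.52 to 9.93 and 9.57 to 9.99. By limma 0 of 3 were called there and 0 had an unadjusted p below 0.05. At 16 dpc in wild type 0 of 3 were called by limma and 2 had an unadjusted p below 0.05, Csf1r at 0.48 ± 0.23 and Cd68 at 0.81 ± 0.28 (adjusted p = 0.22 and 0.0668), both with the higher mean in testes. Of 3 endothelial genes (Pecam1, Cdh5, Kdr) the cadherin Cdh5 alone was called by limma between the sexes. It was higher in wild-type testes at 14 dpc (0.76 ± 0.19, adjusted p = 0.0129) and 16 dpc (0.82 ± 0.19, adjusted p = 0.00521). The median testis minus ovary difference of the 3 was -0.21 and -0.04 in wild type at these ages. In Wv/Wv it was 0.06 and 0.15, with 0 of 3 called. Of the erythroid genes 2 were measured, Klf1 and Slc4a1. Klf1 was called lower in wild-type testes than ovaries at 16 dpc, where the median difference of the 2 was -1.71. In wild type at 14 dpc and in Wv/Wv at every age 0 of 2 were called by limma between the sexes. In Wv/Wv against wild-type ovaries both were called lower at 14 dpc (median -2.50) and Klf1 at 16 dpc (median -2.55). The part of all these cells in the results was not tested.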

How the data were processed

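RNA from whole fetal gonads (31 samples) was measured on Affymetrix 3′ arrays from 50 ng of total RNA, per the labels' protocols. The authors deposited log2 signals of 45101 probe sets, which the submitters' processing notes say were made with RMA; this method equalises arrays, so overall shifts in RNA content are not visible, and its version is not given in the sources used here. Platform annotation gave 34958 probe sets a single symbol, 932 several and 9211 none, and the probe set with the highest mean stood for each of 18194 genes.

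Group means over all 31 arrays were fitted with limma 3.58.1 (R 4.3.3; lmFit, eBayes; 19 residual and 4.00 prior degrees of freedom), and a call needs an adjusted p (Benjamini-Hochberg over all genes) below 0.05 in its comparison, 27 in all, 6 of them added after values were seen. The wild-type testis array of 12 dpc, alone in its group, is assumed to have the spread of the other groups. The members and gene lists were chosen with earlier results of these data known. The text names the 3 members, called members of each list and the 5 genes most like each member. Settings tried are named in the closing section. The deviations of same-numbered arrays from their group means correlated above 0.1 in every pair in 3 of 10 group pairs, and the numbers were not taken as pairing. In a group of 2 arrays the deviations mirror each other, so there this check cannot decide on pairing. The 27 array pairs within groups differed by an SD of at least 0.179, and none was taken for a duplicate. The fit was tested on simulated data with independent noise and no array classes, so that test cannot speak to the narrow-spread arrays. Arrays have no read depth, and their number limits the precision. Figures were drawn with Python 3.11.15 and matplotlib 3.10.9.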

Additional observations from a re-analysis of the deposited data

Results flagged for a closer look

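The change of Cyp11b1 from 12 to 14 dpc differed between testes and ovaries in both genotypes, by a test of that difference in limma. It was larger in testes by 3.00 ± 0.52 (SE, log2 signal, adjusted p = 0.00496) in wild type, which rests on 1 testis array at 12 dpc, and by 2.56 ± 0.45 (adjusted p = 0.00654) in Wv/Wv. All testis arrays of 14 dpc were above all testis arrays of 12 dpc, while the ovary arrays of both ages were under the limit of low signal. The Wv/Wv call was lost with array weights (2.42, adjusted p = 0.0608), with only the arrays compared (2.56, adjusted p = 0.123), and without array 1 of the 14 dpc testes (1.92, adjusted p = 0.113) or array 2 of the 12 dpc ovaries (2.50, adjusted p = 0.0555).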

How the results depend on the processing

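Each member value was recomputed with array weights, a filter on low signal, every probe set, quantile normalization, cyclic loess, a trended robust prior, a block for the replicate number, only the arrays compared, the array class as a term (with and without the narrowest array), another probe set of Cyp21a1, and each array left out; wide-spread or narrow-spread arrays alone were added after the data were seen. Of 930 values under these settings 877 kept their side of the threshold and direction of any call, 17 lost a call, 36 gained one and 0 called values reversed, while 36 uncalled values changed sign. Leaving out arrays gave 510 values, of which 8 lost and 3 gained a call. The cause of these changes was not tested, except that leaving out arrays or fitting fewer of them lowers the degrees of freedom.

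With only the arrays compared, calls between the sexes were lost for Mc2r in wild type at 16 dpc (1.34, adjusted p = 0.102) and in Wv/Wv at 14 and 16 dpc (1.76 and 1.78, adjusted p = 0.0574 and 0.0795), for Cyp11b1 in Wv/Wv at 14 dpc (2.45, adjusted p = 0.067) and for Cyp21a1 in Wv/Wv at 16 dpc (1.00, adjusted p = 0.0984). Cyp21a1 in Wv/Wv at 16 dpc was also lost with quantile normalization (0.95), the other probe set (0.92) and narrow-spread arrays alone (0.98), where Mc2r was lost too (1.07). Array weights, whose estimation did not converge, ended the call of Mc2r in Wv/Wv at 14 dpc (1.68, adjusted p = 0.228). They added calls for Cyp21a1 between the sexes in wild type at 14 dpc (0.42) and from 12 to 14 dpc in wild-type testes (0.55), and between genotypes at 16 dpc for Cyp11b1 in testes and ovaries (0.60 and -0.54), Cyp21a1 in testes and ovaries (0.38 and -0.39) and Mc2r in ovaries (-0.90). They also added calls for the sex by genotype difference at 16 dpc of Cyp11b1, Cyp21a1 and Mc2r (1.13, 0.77 and 1.14) and for the sex by age difference of Mc2r in wild type from 14 to 16 dpc (-1.22).

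With the class term Cyp21a1 was called between the sexes in wild type at 16 dpc (0.51). With the narrowest array also left out it was called at 14 dpc in wild type and Wv/Wv (0.50 and 0.53) and from 12 to 14 dpc in Wv/Wv testes (0.63). Among wide-spread arrays alone it was called at 14 dpc between the sexes (0.42 and 0.87) and from 12 to 14 dpc in testes (0.54 and 0.89); 0.87 compares 1 array with 1, and 0.54 and 0.89 each have an arm of 1 array. Mc2r from 12 to 14 dpc was called between the sexes with array weights in wild type (1.66) and among wide-spread arrays (1.70 and 1.62). With the class term and the narrowest array left out, more of all genes were called between the sexes. At 12, 14 and 16 dpc the number went from 46, 1079 and 1755 to 245, 3270 and 2928 in wild type. In Wv/Wv it went from 68, 671 and 1266 to 406, 2682 and 3728. The class term and the left-out array were not counted apart here.

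Without 1 array the testis minus ovary difference of Mc2r ranged from 1.15 to 1.44 in wild type at 16 dpc and from 1.62 to 1.86 in Wv/Wv at 14 dpc, and that of Cyp11b1 from 14 to 16 dpc in Wv/Wv testes from 0.51 to 1.78. With the replicate block no call of the planned comparisons changed, and of the added ones the fall of Mc2r in wild-type ovaries was lost (-1.43), as it was with every probe set, quantile normalization, cyclic loess and only the arrays compared (-1.44, -1.30, -1.36 and -1.44). The sex by age difference of Cyp11b1 in Wv/Wv was lost with array weights and with only the arrays compared (2.42 and 2.56).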
